A study of Mus musculus with 12 samples.

Results

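Genes of glucose breakdown and of the response to low oxygen were followed across 12 libraries of mouse CD8+ T cells. The 38 genes were chosen by symbol, as the count table's Ensembl mouse identifiers map to them, and all 38 were found among its 55487 genes. The choice was made with earlier results of these data known. By role they were 4 genes of glucose entry, 7 of upper and 5 of lower glycolysis, 3 of lactate handling, 3 regulators of flux, 3 of oxygen sensing and 13 other genes known as hypoxia targets. All 38 passed the filter on low counts that 15897 genes of the table passed.

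The cells came from splenocytes of C57BL/6 mice and were given IL-12 80%TCM, IL-12, IL-2 80%TCM or IL-2, with 3 libraries in each group. The label of each sample names 1 cytokine, so every group had IL-12 or IL-2 and none had neither. TCM is not spelled out in the labels, although the series' title mentions conditions like those of a tumor. No genotype, age or time of treatment is given, and nothing says whether libraries came from separate mice or cultures, so the p-values describe only how far these samples differ, and that spread could be technical. The labels' text on RNA extraction mentions liver, vehicle and bortezomib, none of which is in the label of any sample. The groups are called IL-12 TCM, IL-12, IL-2 TCM and IL-2 below.

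Glycolysis splits glucose into pyruvate and yields ATP without oxygen, and activated T cells are known to raise it and to release lactate. Hypoxia-inducible factors join an oxygen-sensitive alpha subunit, such as HIF1A, to a stable partner, and bind short DNA letters in the control regions of genes of glycolysis, angiogenesis and mitophagy. When oxygen is plentiful, prolyl hydroxylases of the EGLN family mark the alpha subunit for destruction, so that its protein can change without its mRNA.

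Libraries held 19500568 to 26007717 counts, apart from replicates 1 and 2 of IL-12 with 49638920 and 42349121, and replicate 3 of IL-2 TCM and of IL-2 with 24126357 and 21784630 lay within that range. Levels below are counts per 1e+06 counts (CPM) on TMM-scaled library sizes, and they are compared between libraries, not between genes. The 7 T cell markers Cd8a, Cd8b1, Cd3d, Cd3e, Cd3g, Trac and Cd2 summed to 3168 to 3905 CPM in every library. Only Cd8a, at 813 to 1365 CPM, and Cd8b1, at 454 to 723 CPM, are genes of CD8 itself. Sums were at most 20.1 CPM for 5 markers of B cells, 18.1 CPM for 6 of myeloid cells and 6.22 CPM for 3 of CD4 T cells. They were at most 2.47 CPM for NK cells and 1.99 CPM for erythroid cells. Markers of platelets summed to 23.2 to 124 CPM, with Gp1bb at 0 in every library. Replicate 3 of IL-2 TCM and replicate 3 of IL-2 stood apart from replicates 1 and 2 of their groups. Compared over all genes with a chi-square per degree of freedom, pairs of replicates with 1 of those libraries gave 28.5 to 45.4, and all other pairs of replicates gave 2.40 to 5.51. Results that rest on these libraries are therefore given with and without them.

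The summed level of the 38 genes showed that split and the differences between the groups around it. The sum was 17774, 17099 and 15682 CPM in replicates 1, 2 and 3 of IL-12 TCM and 13682, 12828 and 13001 CPM in IL-12. It was 9344, 9637 and 27588 CPM in IL-2 TCM and 8891, 9106 and 24228 CPM in IL-2. Replicate 3 of each IL-2 group was thus above every IL-12 and IL-12 TCM library in this sum, while replicates 1 and 2 were below all of them. Most of the sum came from glycolysis genes, at 25550 of 27588 CPM in replicate 3 of IL-2 TCM. Genes of oxygen sensing and hypoxia targets alone summed to 2038 CPM in replicate 3 of IL-2 TCM and 1704 CPM in that of IL-2. They summed to 2191, 2144 and 2075 CPM in IL-12 TCM, above both, and to 1568, 1499 and 1510 CPM in IL-12, below both. In bulk RNA, a different share of cells that express a gene and a different amount of its RNA per cell cannot be told apart.

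**Figure D1:**
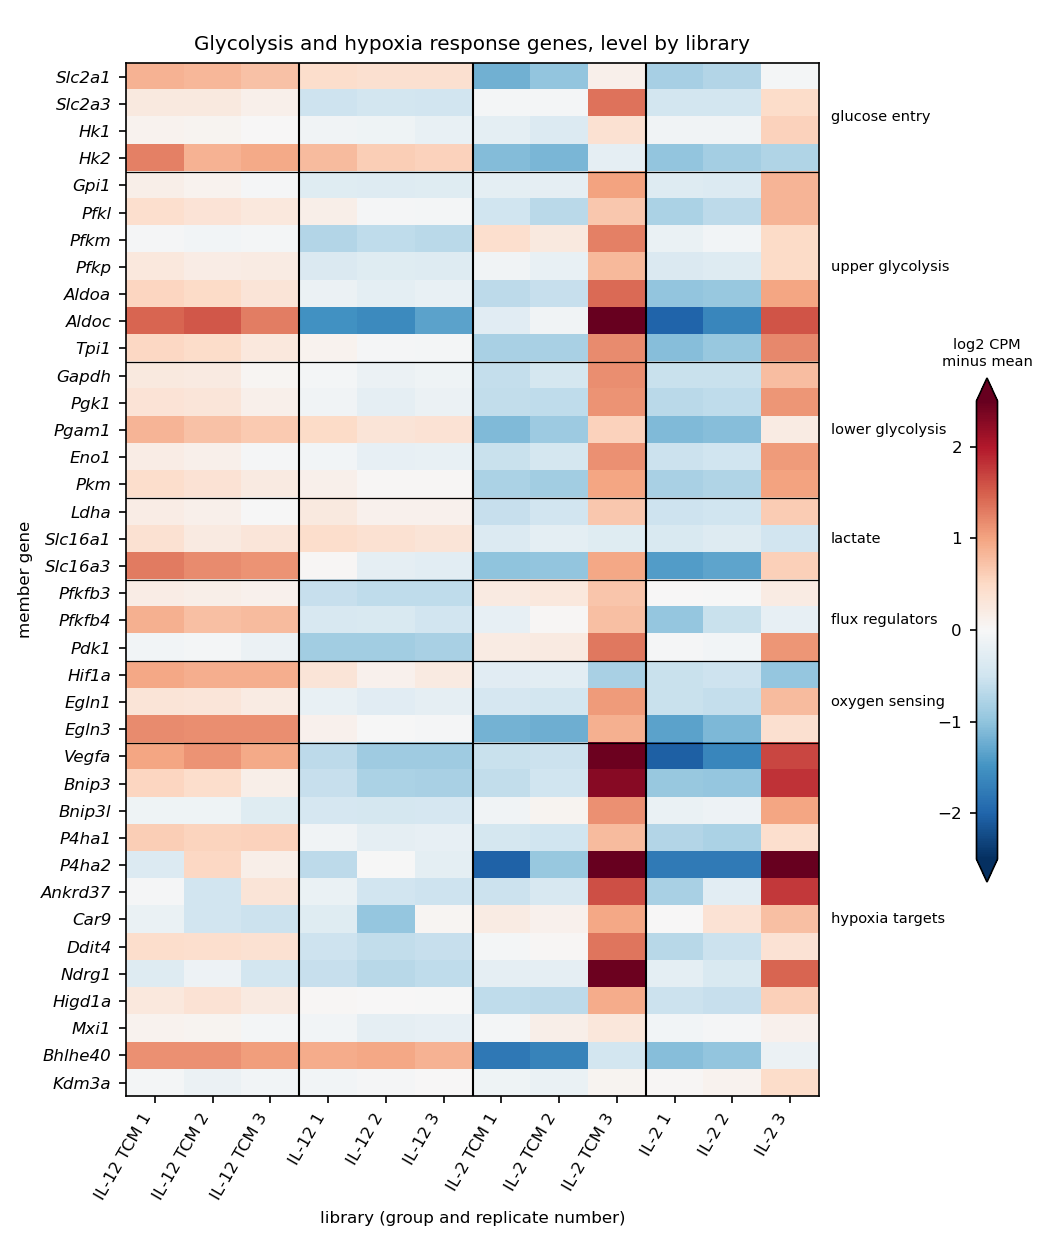
Level of each of the 38 genes (rows, by role) in each of the 12 libraries (columns), as log2 CPM minus the gene's mean over the 12 libraries. The columns of replicate 3 of IL-2 TCM and of IL-2 are high for 36 of the 38 genes relative to replicates 1 and 2 of the same group, Hif1a is low there, and Slc16a1 follows the cytokine.

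Within both IL-2 groups, 36 of the 38 genes were higher in replicate 3 than in replicates 1 and 2, where 26.1% of all genes tested were. Hif1a was lower in replicate 3 than in both others in both groups, as were 23% of all genes tested, and Slc16a1 did neither. In both groups 23 members were at least 2-fold higher in replicate 3 than the mean of replicates 1 and 2, against 1.66% of all genes tested. The median log2 ratio of the 38 genes was 1.30 in IL-2 TCM and 1.17 in IL-2, and it was -0.11 in IL-12 TCM and -0.04 in IL-12. In replicate 3 of IL-12 TCM 27 members were below both other replicates and 1 above, against 5454 and 4851 of all 15897 genes tested. In replicate 3 of IL-12 12 were below and 5 above, against 5689 and 4822. In the IL-12 TCM and IL-12 groups 0 members were higher in replicate 3 than in replicates 1 and 2 of both, where 9.45% of all genes tested were. At least 2-fold higher were 0 members, where 0.0252% were. These ratios compare single libraries and carry no test, and the list beside these shares was chosen with earlier results of these data known. The summed T cell markers (Cd8a, Cd8b1 and the others named above) in replicate 3 were 3697 CPM in IL-2 TCM, against 3774 and 3905 CPM in replicates 1 and 2. In IL-2 they were 3168 CPM, against 3542 and 3436 CPM. Myeloid markers summed to 18.1 CPM in replicate 3 of IL-2 TCM, against 11.6 and 10.8 CPM, and to 12.9 CPM in that of IL-2, against 9.56 and 9.38 CPM, and their part in the result was not tested.

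The widest gaps were at P4ha2 (ENSMUSG00000018906) and Vegfa (ENSMUSG00000023951). P4ha2, a subunit of the prolyl 4-hydroxylase that modifies collagen, had 27.9 CPM in replicate 3 of IL-2 TCM, against 0.388 and 0.922 CPM in replicates 1 and 2. In IL-2 it was at 18.9 CPM in replicate 3, against 0.485 and 0.483 CPM. It was under 3 CPM in all other libraries, at 1.45, 2.72 and 2.10 CPM in IL-12 TCM and 1.16, 1.88 and 1.56 CPM in IL-12. Vegfa, the growth factor of blood vessels, was 7.99-fold higher in replicate 3 of IL-2 TCM and 11.2-fold higher in replicate 3 of IL-2 than the mean of the other replicates. It had 57.2 CPM in replicate 3 of IL-2 TCM, against 7.03 and 7.12 CPM, and 32.9 CPM in replicate 3 of the IL-2 group, against 2.42 and 3.26 CPM. All IL-12 libraries were below both of those replicate 3 libraries, at 20.6, 22.6 and 19.9 CPM with TCM and 6.53, 5.51 and 5.54 CPM without.

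Bnip3, Ndrg1 and Ankrd37 came next among the hypoxia targets. Bnip3, a mitophagy receptor, had 64.2 CPM in replicate 3 of IL-2 TCM, against 8.53 and 9.22 CPM, and 45.9 CPM in that of IL-2, against 6.74 and 6.64 CPM. In the IL-12 libraries it had 19.0, 17.8 and 14.5 CPM with TCM and 8.80, 7.53 and 7.45 CPM without. Ndrg1, a stress-responsive gene named for its regulation by N-myc, had 76.3 CPM in replicate 3 of IL-2 TCM, against 11.8 CPM in both others, and 38.4 CPM in that of IL-2, against 11.7 and 10.6 CPM. Its IL-12 libraries stayed near the lower values, with 11.1, 12.7 and 10.1 CPM in IL-12 TCM and 9.24, 8.54 and 8.96 CPM in IL-12. Ankrd37, an ankyrin repeat gene known as a HIF target, had 9.69 CPM in replicate 3 of IL-2 TCM, against 2.08 and 2.32 CPM, and 10.7 CPM in that of IL-2, against 1.72 and 2.54 CPM. It had 3.01, 2.20 and 3.90 CPM in IL-12 TCM and 2.73, 2.17 and 2.11 CPM in IL-12, so that both replicate 3 libraries were above all others.

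Among the enzymes, aldolase and triosephosphate isomerase had the largest ratios. Aldoc, an aldolase isoform best known from brain, had 298 CPM in replicate 3 of IL-2 TCM, against 41.3 and 47.6 CPM, and 150.4 CPM in that of IL-2, against 12.4 and 16.1 CPM. Aldoa, the isoform of muscle and most other cells, had 3096 CPM in replicate 3 of IL-2 TCM, against 736 and 779 CPM, and 2310.5 CPM in that of IL-2, against 585 and 604 CPM. Aldoa in the IL-12 libraries was in between, at 1697, 1623 and 1459.9 CPM with TCM and 1044, 978 and 1018 CPM without. A second row of the table also maps to Aldoa and was not used, since its 363 counts over all libraries are 0.0918% of those of the first. Tpi1, which interconverts the 2 triose phosphates, had 1246 CPM in replicate 3 of IL-2 TCM, against 310.2 and 313 CPM, and 1260.5 CPM in that of IL-2, against 262 and 286 CPM. It had 781, 749.7 and 654 CPM in IL-12 TCM and 585, 537 and 529 CPM in IL-12.

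By role, the median log2 ratio of replicate 3 was largest for lower glycolysis in both groups, at 1.67 in IL-2 TCM and 1.59 in IL-2. Upper glycolysis had 1.25 in IL-2 TCM and 1.58 in IL-2, and lactate handling had 1.19 and 1.13 in the same groups. Oxygen sensing had 1.496 in IL-2 TCM and 1.37 in IL-2, with Egln1 and Egln3 above and Hif1a below replicates 1 and 2. Genes of glucose entry had 1.05 in IL-2 TCM and 0.70 in IL-2, and the flux regulators 0.84 and 0.54, with Pfkfb3 and Pfkfb4 below Pdk1. Eno1, enolase, had 2896 CPM in replicate 3 of IL-2 TCM, against 881 and 956 CPM. Reads of Eno1 and its near-identical copy Eno1b cannot be told apart with certainty, and Eno1b was likewise at 237 CPM in replicate 3 of both groups, against 62.6 to 70.6 CPM in replicates 1 and 2.

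The 2 genes that did not follow were Hif1a (ENSMUSG00000021109), the oxygen-sensitive alpha subunit itself, and Slc16a1 (ENSMUSG00000032902), the lactate transporter MCT1. Hif1a had 192 CPM in replicate 3 of IL-2 TCM, against 275 and 279 CPM, and 171 CPM in that of IL-2, against 228 and 236 CPM. Slc16a1 had 96.0 CPM in replicate 3 of IL-2 TCM, against 93.4 and 99.7 CPM, and 84.5 CPM in that of IL-2, against 90.7 and 94.7 CPM. The other lactate transporter of the list, Slc16a3 or MCT4, was high in both replicate 3 libraries, at 127 CPM in IL-2 TCM, against 32.4 and 32.6 CPM, and at 98.03 CPM in IL-2, against 24.5 and 26.0 CPM.

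**Figure D2:**
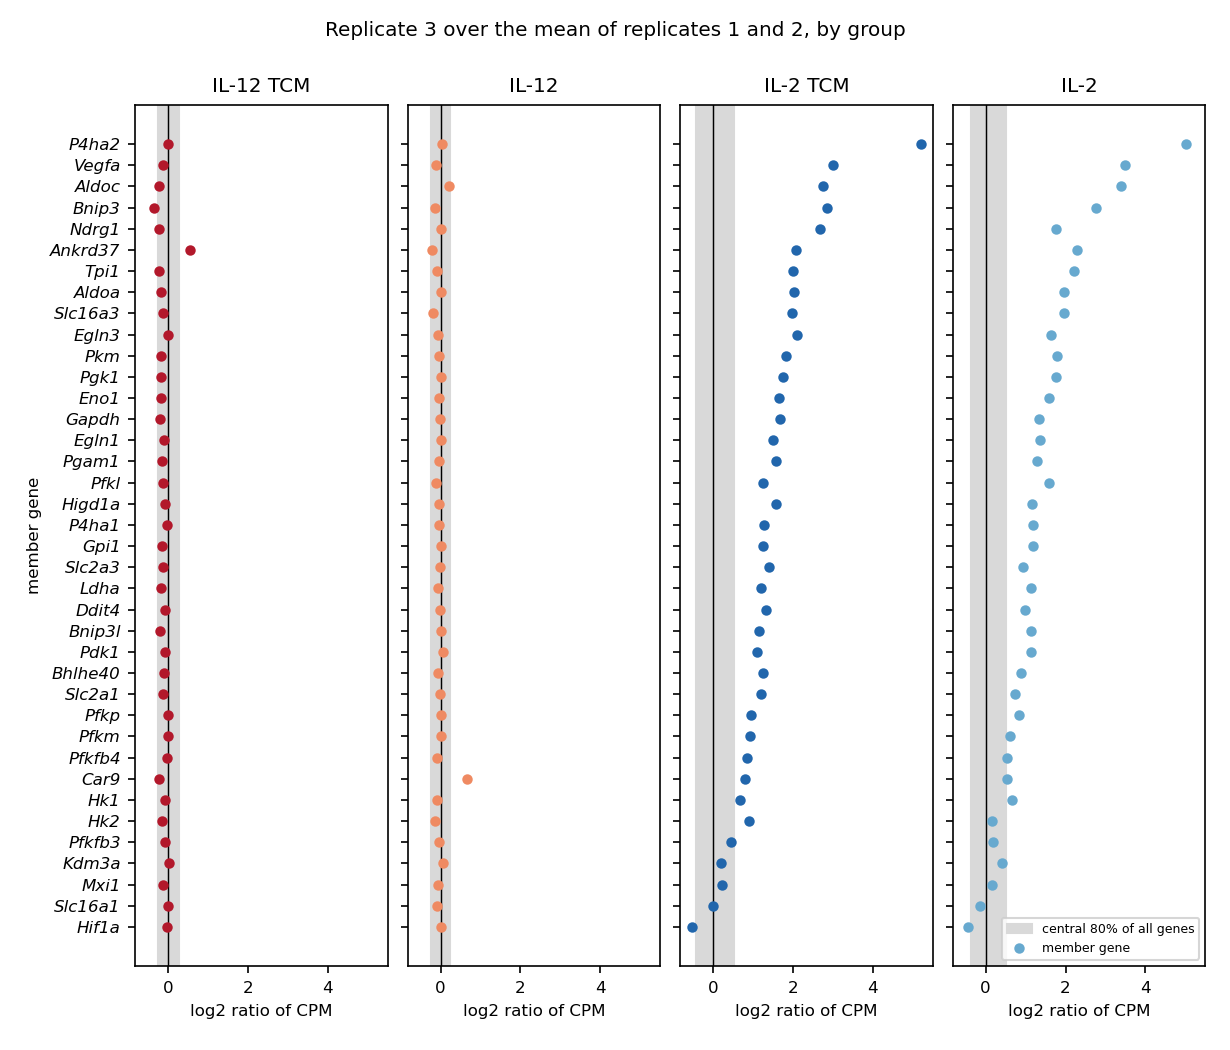
Log2 ratio of the CPM in replicate 3 to the mean of replicates 1 and 2 of the same group, for each of the 38 genes in each of the 4 groups, with 0.1 CPM added, and the central 80% of all genes tested as a grey band. The medians are 1.30 in IL-2 TCM, 1.17 in IL-2, -0.11 in IL-12 TCM and -0.04 in IL-12. P4ha2 lies farthest out, 37.1-fold and 32.5-fold higher in replicate 3 of the IL-2 groups.

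The order of all 12 libraries was also counted, member by member. In 11 members replicate 3 of both IL-2 groups was above all 10 other libraries and every IL-12 and IL-12 TCM library was above replicates 1 and 2 of both IL-2 groups, an order found in 0.453% of all genes tested. These were Pfkl, Aldoa, Tpi1, Gapdh, Pgk1, Eno1, Pkm, Ldha, Egln1, P4ha2 and Higd1a, of which 8 are glycolytic enzymes. In 27 members replicate 3 of both IL-2 groups was above every IL-12 library with or without TCM, against 23.3% of all genes tested. In 5 members, Slc2a1, Hk2, Slc16a1, Hif1a and Bhlhe40, every IL-12 library was above every IL-2 library. Of all genes tested 12.9% had that order, about the same share, so this count is not particular to the list. In 0 members was every one below, against 12%.

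**Figure D3:**
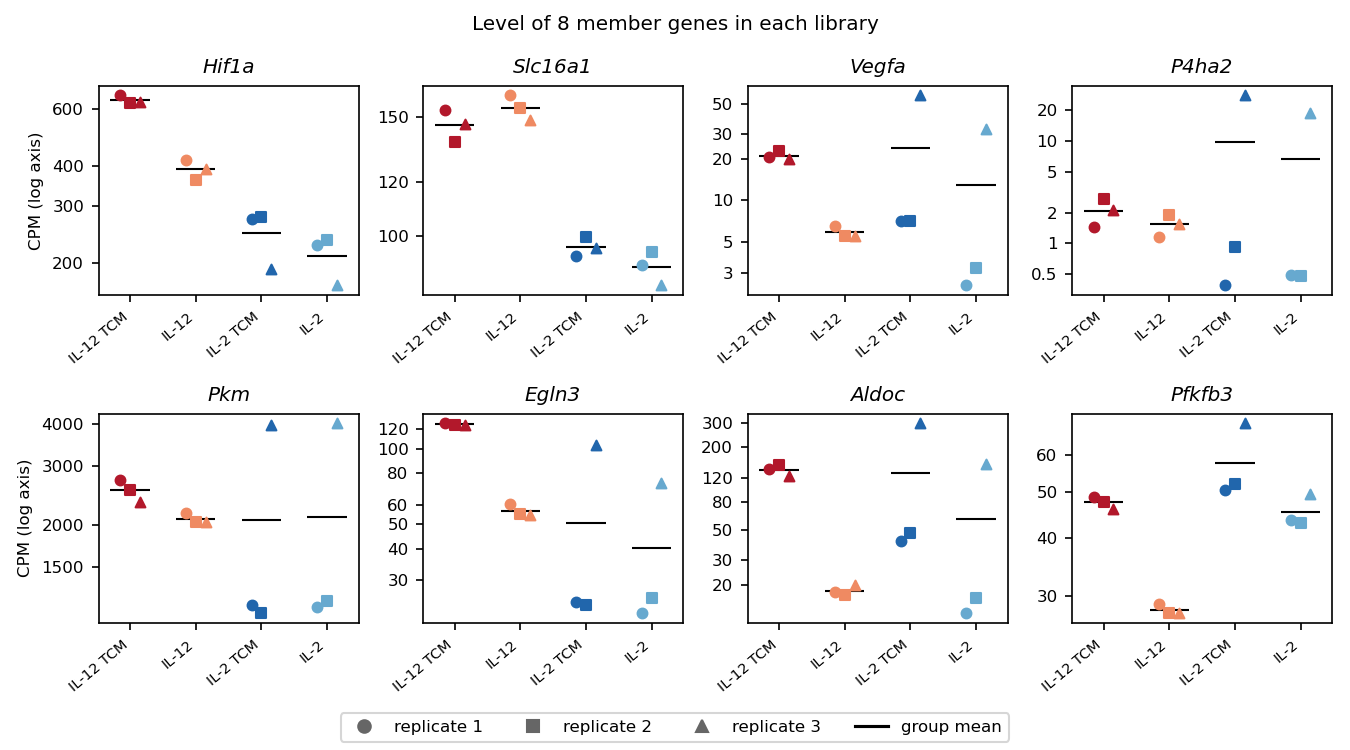
CPM on a log axis of Hif1a, Slc16a1, Vegfa, P4ha2, Pkm, Egln3, Aldoc and Pfkfb3 in each library, with a bar at the mean of each group. Hif1a and Slc16a1 separate by cytokine in all libraries, whereas in Vegfa, P4ha2, Pkm, Egln3 and Aldoc replicate 3 of the 2 IL-2 groups is far above replicates 1 and 2.

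The promoters of the genes are shown as a description of the list, and why members moved together across libraries was not tested. RefSeq promoter windows on build GRCm38.p6 were at hand for 34 of the 38 genes, in 52 windows, and not for Slc2a3, Bnip3l, Ndrg1 and Bhlhe40. The letters ACGTG and GCGTG, known as the core of the hypoxia response element, were searched on either strand in the 250 bases before each start. At least 1 match was found in 41 of the 52 windows (78.8%), against 38.6% of all 32851 windows. ACGTG was in 26 of the members' 52 windows, against 16.6% of all windows. The list holds genes chosen as known hypoxia targets, so a higher share of these letters can come from that choice alone. These windows are also rich in CpG, with a median of 14 CpG in 250 bases against 6 for all windows, and a GC content of 62.2% against 52.4%, and the part of that in the matches was not tested. A match is a description of letters, and nothing here measured binding. Below are the 150 bases before the start of P4ha2 (chr11:54100774-54100923, plus strand), which had the largest replicate 3 ratio, Bnip3 (chr7:138909507-138909656, minus strand), Ldha (chr7:46845654-46845803, plus strand) and Tpi1 (chr6:124814159-124814308, minus strand), all 5′ to 3′ on the gene's strand. Capitals mark the matched letters, which read CACGT or CACGC when the match is on the opposite strand, and CACGTG holds 2 overlapping matches.
P4ha2: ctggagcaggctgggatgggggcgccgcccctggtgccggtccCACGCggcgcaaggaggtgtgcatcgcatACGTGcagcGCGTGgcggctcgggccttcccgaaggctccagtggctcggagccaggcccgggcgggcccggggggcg
Bnip3: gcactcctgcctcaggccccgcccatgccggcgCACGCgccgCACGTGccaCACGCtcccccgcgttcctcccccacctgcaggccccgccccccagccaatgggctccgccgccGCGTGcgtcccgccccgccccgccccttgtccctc
Ldha: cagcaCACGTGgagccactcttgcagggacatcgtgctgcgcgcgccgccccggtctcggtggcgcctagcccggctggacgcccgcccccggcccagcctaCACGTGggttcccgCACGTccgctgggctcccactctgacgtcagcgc
Tpi1: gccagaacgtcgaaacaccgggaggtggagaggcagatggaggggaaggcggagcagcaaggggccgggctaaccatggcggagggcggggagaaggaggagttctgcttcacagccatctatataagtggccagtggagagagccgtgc
The stretch of P4ha2 holds 3 matches, that of Bnip3 5, that of Ldha 5, and that of Tpi1 0, although Tpi1 was 4.0-fold and 4.60-fold higher in replicate 3 of IL-2 TCM and of IL-2. Bnip3 and this window of Ldha hold the most matches of any member window, and a second window of Ldha holds 1. Vegfa, with the second largest replicate 3 ratio, has 0 in the 150 bases of both its windows and 2 farther upstream in 1 of them. Tpi1 and Gpi1 were the 2 matched genes with no match in any window. No match says only that these letters are not in these windows.

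Genes of the list were higher with TCM in the IL-12 libraries, most of all Aldoc. In the fit over all 12 libraries, 5 of 38 rose (Aldoc, Pfkfb4, Ddit4, Pfkfb3 and Hif1a) and 0 fell. Of all genes tested 29% were called, 14.8% higher and 14.2% lower. An unadjusted p under 0.05 (edgeR) was found for 12 members, and the share of all genes tested under that cut was not counted. In 32 members every IL-12 TCM library was above every IL-12 library and in 0 members below, against 26.9% and 25.3% of all genes tested. The median log2 fold change of the 38 genes was 0.40, against 0.01 over all genes tested. Platelet markers summed to 29.5, 23.2 and 25.0 CPM in IL-12 TCM and 57.0, 67.5 and 61 CPM in IL-12, and their part in the result was not tested.

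Pfkfb3 and Pfkfb4 make the sugar bisphosphate that activates phosphofructokinase. Pfkfb3 was at 48.9, 47.7 and 46.1 CPM in IL-12 TCM and 29.0, 27.6 and 27.6 CPM in IL-12, a log2 fold change of 0.76 ± 0.11 (SE, n = 3 each) with an adjusted p of 0.000254 in edgeR's quasi-likelihood test. Pfkfb4 was at 11.9, 10.9 and 11.1 CPM in IL-12 TCM and 4.82, 4.86 and 4.58 CPM in IL-12, 2.37-fold higher with an adjusted p of 0.0012. Hif1a was at 661, 628 and 632 CPM in IL-12 TCM and 418, 363 and 392 CPM in IL-12, 1.64-fold higher with an adjusted p of 0.00184. These 3 genes were called with any 1 library left out. Aldoc was at 139, 148 and 123 CPM in IL-12 TCM and 17.7, 16.7 and 19.9 CPM in IL-12, 7.57-fold higher with an adjusted p of 0.0261. Ddit4, an inhibitor of mTORC1 signalling also known as REDD1, was at 179.9, 177 and 171 CPM in IL-12 TCM and 92.1, 86.5 and 88.6 CPM in IL-12, 1.98-fold higher with an adjusted p of 0.0364. The calls of Aldoc and Ddit4 were lost when any 1 of the 6 IL-12 TCM and IL-12 libraries was left out, with adjusted p of 0.0536 to 0.0979.

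That fit takes 1 spread per gene from all 4 groups, which replicate 3 of the IL-2 groups widens: the SE of Aldoc was 0.89 in it and 0.07 with the 6 IL-12 and IL-12 TCM libraries alone. With those 6 libraries alone 32 members rose and 0 fell, where 48.9% of all genes tested were called, 25.5% higher and 23.4% lower. The 12 libraries less the 2 replicate 3 libraries of the IL-2 groups also gave 32 and 0, where 46% of all genes tested were called, 23.1% higher and 22.9% lower. With the replicate number as a block in IL-2 TCM and IL-2 alone, 31 rose and 0 fell, where 42% were called, 22.1% higher and 19.9% lower. In the 6 libraries all 4 genes of glucose entry rose, with Slc2a3, the glucose transporter GLUT3, highest at a log2 fold change of 0.69 ± 0.04 (SE), and Hk1, a hexokinase, lowest at 0.18 ± 0.04. All 7 genes of upper and all 5 of lower glycolysis rose. Outside Aldoc and Aldoa they lay between 0.24 for Eno1 and 0.63 for Pfkm, the muscle form of phosphofructokinase. Of the lactate genes Slc16a3 alone rose, at 161, 146 and 141 CPM in IL-12 TCM and 65.9, 55.4 and 53.6 CPM in IL-12. Ldha, which turns pyruvate into lactate, had a log2 fold change of -0.05 ± 0.05 and Slc16a1 of -0.09 ± 0.04 (adjusted p = 0.399 and 0.112).

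All 3 oxygen-sensing genes rose with TCM in those 6 libraries. Egln3, a prolyl hydroxylase that is itself a HIF target, was at 127, 125 and 125 CPM in IL-12 TCM and 60.2, 55.0 and 54.7 CPM in IL-12, 2.21-fold higher. Egln1, the main oxygen sensor of the family, had a log2 fold change of 0.51 ± 0.04. Among the 13 other hypoxia targets 9 rose, led by Vegfa, 3.55-fold higher, Bnip3 with a log2 fold change of 1.09 ± 0.10, Ddit4 and P4ha1. Pdk1, the kinase that holds pyruvate out of the mitochondrial dehydrogenase, was at 111, 112 and 105 CPM in IL-12 TCM and 63.7, 63.6 and 66.4 CPM in IL-12. The 4 targets not called were P4ha2, Ankrd37 and Car9, all under 5 CPM in these libraries, and Kdm3a, a histone demethylase at 146, 137 and 143 CPM in IL-12 TCM and 144, 148 and 151 CPM in IL-12.

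With TCM in the IL-2 libraries, 2 of 38 genes rose, Pfkfb4 and Pfkfb3, and 0 fell in the fit over all 12 libraries, where 14.5% of all genes tested were called, 6.73% higher and 7.82% lower. Of the 38 genes, 5 had an unadjusted p under 0.05 (edgeR), a cut whose share of all genes tested was not counted. The median log2 fold change was 0.22, against 0.00 over all genes tested. That median was -0.46 without replicate 3 of IL-2 TCM, 0.80 with IL-2 replicate 3 left out, 0.05 and 0.06 with IL-2 replicate 1 or 2 left out, and 0.42 without replicate 1 or 2 of IL-2 TCM. Pfkfb4 was at 5.52, 6.49 and 10.8 CPM in IL-2 TCM and 3.22, 4.35 and 5.55 CPM in IL-2, 1.75-fold higher (adjusted p = 0.032, edgeR). Pfkfb3 was at 50.6, 52.0 and 70.2 CPM in IL-2 TCM and 43.5, 43.1 and 49.5 CPM in IL-2, 1.27-fold higher (adjusted p = 0.042, edgeR). Both rose with TCM in IL-12 as well, a pair of calls found in 4.59% of all genes tested, while 0 members fell in both, against 4.88%. Pfkfb3 was the 1 member whose IL-2 TCM libraries were all above its IL-2 libraries, against 13.1% of all genes tested, and 0 members had them all below, against 14.3%. Neither was called without replicate 3 of IL-2 TCM (log2 fold changes of 0.48 for Pfkfb4 and 0.19 for Pfkfb3) or when the first or second IL-2 library was left out. Pfkfb3 also lost its call when IL-12 TCM replicate 2, IL-12 replicate 2 or IL-12 replicate 3 was left out, with an adjusted p of at most 0.0566. With only the 6 IL-2 TCM and IL-2 libraries 0 members were called, where 3.81% of all genes tested were, 1.62% higher and 2.19% lower.

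Same-numbered IL-2 TCM and IL-2 libraries deviated from their group means together, so the comparison was also fitted with their replicate number as a block. Replicates 1 and 2 correlated as much when crossed (0.41 and 0.45) as with the same number (0.43 and 0.40). With replicate 3 apart in both groups, replicates 1 and 2 deviate alike. The correlations therefore do not show that numbers 1 and 2 mark pairs, and the block and pair counts below take the numbers as given. With this block 20 members rose and 3 fell, where 27.9% of all genes tested were called, 14% in each direction. Without replicate 3 of both groups, 15 rose and 4 fell, where 24.7% were called, 12.3% higher and 12.4% lower. With the replicate block Aldoc, given per library above, was 2.52-fold higher, Vegfa had a log2 fold change of 1.003 ± 0.11 and Ddit4 of 0.74 ± 0.06. Ddit4 was at 128, 135 and 331 CPM in IL-2 TCM and 81.3, 90.6 and 169 CPM in IL-2, above its same-numbered library in 3 of 3 pairs. Slc2a3 was at 175, 175 and 464 CPM in IL-2 TCM and 131, 131 and 249.7 CPM in IL-2, again higher in each pair. In all, 21 members were higher in 3 of 3 pairs, against 25.8% of all genes tested, and 3 were lower, against 25.9%.

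The 3 that were lower in each pair, and fell with the block, were Bhlhe40, Kdm3a and Hk1. Bhlhe40, a transcriptional repressor that T cells also use in cytokine production, was at 70.3, 75.8 and 175 CPM in IL-2 TCM and 116, 121 and 220.0 CPM in IL-2, a log2 fold change of -0.57 ± 0.06 with the block. Kdm3a was at 139, 134 and 158 CPM in IL-2 TCM and 154, 161 and 208 CPM in IL-2. Hk1 was at 204, 190.5 and 313 CPM in IL-2 TCM and 226, 226 and 359 CPM in IL-2. Without replicate 3, Slc2a1, the glucose transporter GLUT1, was also lower, with a log2 fold change of -0.30. Platelet markers summed to 41.8, 45.1 and 54.2 CPM in IL-2 TCM and 102, 124 and 104 CPM in IL-2, and their part in these results was not tested.

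**Figure D4:**
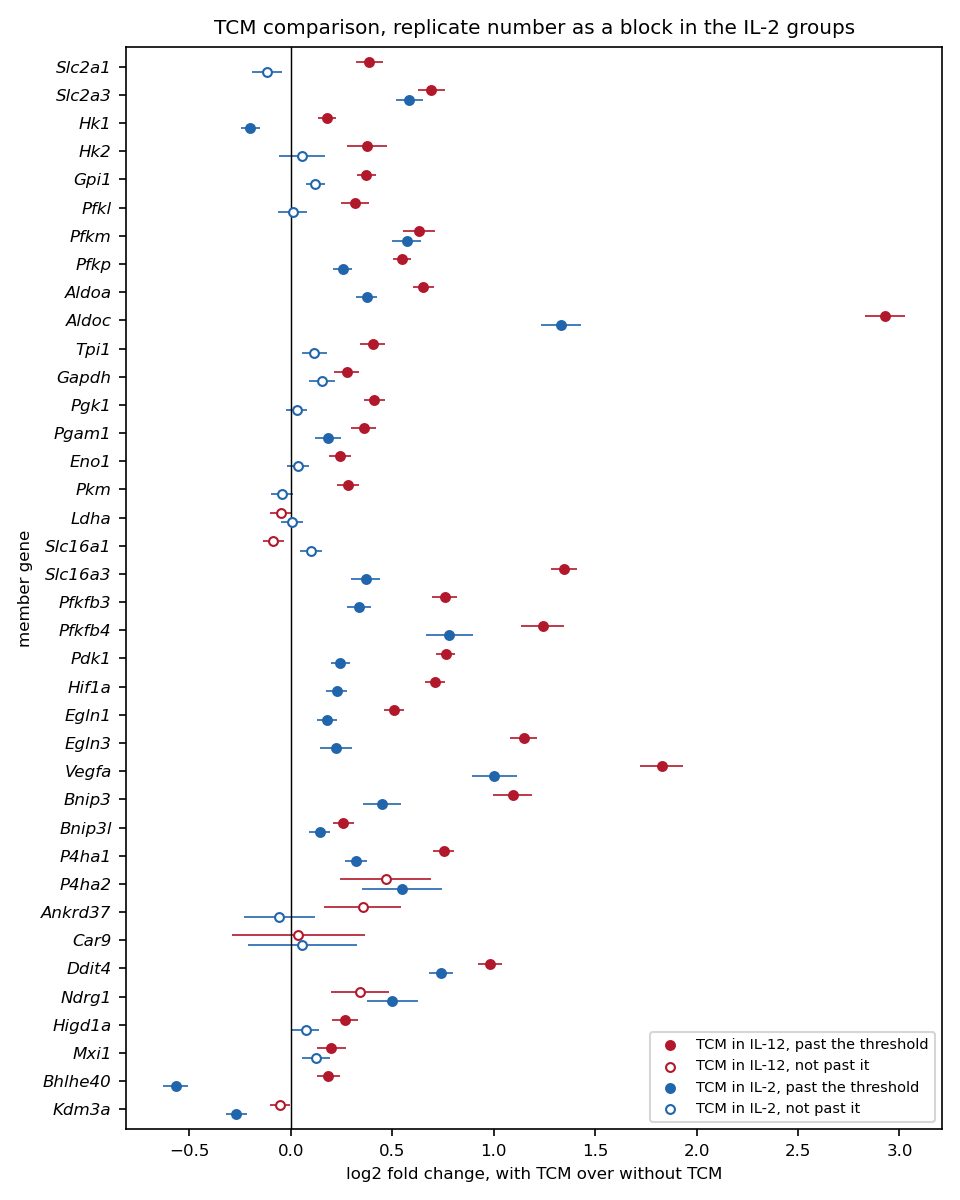
Log2 fold change with TCM ± SE of each of the 38 genes in IL-12 and in IL-2, from the fit over 12 libraries with replicate number as blocking factor for IL-2 TCM and IL-2 alone, where filled points passed an adjusted p of 0.05. In IL-12 31 genes rose and 0 fell, and in IL-2 20 rose and 3 fell, with Aldoc farthest right in both.

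The TCM effect was compared between the cytokines as 1 term. Over all 12 libraries 0 members were called in that difference (edgeR), where 1.58% of all genes tested were, 1.19% with a higher effect in IL-12 and 0.39% with a lower one. An unadjusted p under 0.05 (edgeR) was found for 3 members, Pfkfb3 at 0.42, Hif1a at 0.48 and Slc16a1 at -0.18 on the log2 scale. The share of all genes tested under that unadjusted cut was not counted. DESeq2 and limma also called 0 members. With that replicate block the effect was higher in IL-12 for 19 members and lower for 0, where 10.5% of all genes tested were called, 6.35% higher and 4.14% lower. Without replicate 3 of both IL-2 groups these counts were 22 and 0, where 13.2% were called, 6.96% higher and 6.24% lower. With the block the largest difference was that of Aldoc, at 1.60 ± 0.14, followed by Slc16a3 at 0.98 ± 0.10 and Egln3 at 0.92 ± 0.10. For Egln3 the levels were 24.4, 23.9 and 103 CPM in IL-2 TCM and 22.1, 25.4 and 73.3 CPM in IL-2, so its libraries overlapped there and did not in IL-12. Other members called were Vegfa at 0.82 ± 0.15, Bhlhe40 at 0.75 ± 0.08, Pdk1 at 0.52 ± 0.07, Hif1a at 0.48 ± 0.07, P4ha1 at 0.43 and Hk1 at 0.38 ± 0.06. Bhlhe40 and Hk1 had opposite signs in the 2 comparisons, higher with TCM in IL-12 and lower with TCM in IL-2.

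IL-12 libraries had more Hif1a, Slc16a1, Hk2, Slc2a1 and Bhlhe40 RNA than IL-2 libraries, with TCM and without it. Without TCM, 5 members rose and 4 fell, where 45.1% of all genes tested were called, 22.1% higher and 23% lower. With TCM, 5 rose and 1 fell, where 39% were called, 19.5% higher and 19.4% lower. The 5 that rose were those named genes in both comparisons, where 14.7% of all genes tested rose in both. Pfkm fell in both, as did 14.7%. Neither count was above its share of all genes tested, so both describe single genes and not the list. The medians of the 38 genes were -0.25 without TCM and 0.04 with TCM, against -0.01 over all genes tested in both. The first was 0.41 with IL-2 replicate 3 left out and -0.45 and -0.44 with IL-2 replicate 1 or 2 left out. The second was 0.79 without replicate 3 of IL-2 TCM, -0.20 and -0.23 without its replicate 1 or 2, 0.01 without IL-12 TCM replicate 2, 0.08 without IL-12 TCM replicate 3, and turned just below 0 without IL-12 TCM replicate 1. Markers of B cells summed to 8.49 to 9.57 CPM in IL-12 TCM and 6.24 to 7.95 CPM in IL-12, against 17.01 to 20.1 CPM in IL-2 TCM and 16.6 to 20.01 CPM in IL-2. Those of CD4 T cells summed to 3.35 to 3.44 CPM in IL-12 TCM and 1.43 to 1.82 CPM in IL-12, against 4.22 to 6.22 CPM in IL-2 TCM and 2.82 to 3.33 CPM in IL-2. Platelet markers, given per library elsewhere, were lower in IL-12 than in IL-2 with and without TCM, with 4 of 4 tested markers called lower in both comparisons. NK markers summed to at most 0.550 CPM in the IL-12 and IL-12 TCM libraries, against 0.725 to 2.47 CPM in the IL-2 and IL-2 TCM libraries, and the 1 tested marker each of NK and of erythroid cells was called lower in both comparisons. Myeloid markers had 0 of 3 called with TCM and 1 of 3 called lower without it. The part of these markers in the results was not tested. These comparisons share no libraries with each other, though each shares a group with each TCM comparison.

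Hif1a was at 661, 628 and 632 CPM in IL-12 TCM and 275, 279 and 192 CPM in IL-2 TCM, 2.58-fold higher (adjusted p = 3.87e-06, edgeR). Without TCM it was at 418, 363 and 392 CPM in IL-12 and 228, 236 and 171 CPM in IL-2, 1.85-fold higher (adjusted p = 0.000169). Slc16a1 was at 154, 137 and 146 CPM in IL-12 TCM and 93.4, 99.7 and 96.0 CPM in IL-2 TCM, 1.51-fold higher, and at 161, 154 and 148 CPM in IL-12 and 90.7, 94.7 and 84.5 CPM in IL-2, 1.72-fold higher. Hk2, the inducible hexokinase, was at 185, 141 and 148 CPM in IL-12 TCM and 36.0, 34.6 and 65.6 CPM in IL-2 TCM, 3.48-fold higher. Without TCM it was at 133, 118 and 114 CPM in IL-12 and 38.8, 42.5 and 45.7 CPM in IL-2, 2.88-fold higher. In these genes no IL-12 library overlapped an IL-2 library. Over the 38 genes, the libraries did not overlap for 9 higher and 5 lower members with TCM, against 25.1% and 24.9% of all genes tested, and for 6 higher and 8 lower members without TCM, against 28.4% and 28.9%.

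Bhlhe40 had the largest fold among the called members, at 534, 534 and 501 CPM in IL-12 TCM and 70.3, 75.8 and 175 CPM in IL-2 TCM, 4.88-fold higher, and at 461, 474 and 444 CPM in IL-12 against 116, 121 and 220.0 CPM in IL-2, 3.02-fold higher. Slc2a1 was at 114, 111 and 104 CPM in IL-12 TCM and 27.3, 31.7 and 68.3 CPM in IL-2 TCM, 2.57-fold higher. Without TCM it was at 85.4, 82.8 and 82.8 CPM in IL-12 and 35.3, 37.4 and 60.2 CPM in IL-2, 1.89-fold higher. The calls of these 5 genes held in both comparisons with any 1 library left out.

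Pfkm fell in both comparisons. It was at 26.4, 25.8 and 26.2 CPM in IL-12 TCM and 36.1, 32.2 and 65.1 CPM in IL-2 TCM, a log2 fold change of -0.77 ± 0.22, and at 16.2, 17.4 and 17.01 CPM in IL-12 and 24.1, 25.8 and 37.9 CPM in IL-2, a change of -0.79 ± 0.23. The second of these lost its call when IL-2 replicate 3 was left out (adjusted p = 0.0553, edgeR). Pfkfb3, Pdk1 and Car9 also fell without TCM, at log2 fold changes of -0.69 ± 0.11, -1.29 ± 0.31 and -0.89 ± 0.34. With TCM the values of these genes were -0.28 ± 0.10, -0.77 ± 0.31 and -0.95 ± 0.36. Their adjusted p were 0.0514, 0.0651 and 0.0506 (edgeR). The difference between the 2 comparisons is the same term as the difference of the TCM effect. Over all 12 libraries without a block, that term was called for none of these genes. With the replicate number as a block in IL-2 TCM and IL-2 alone, it was called for Pfkfb3 and Pdk1 but not for Car9. It was then 0.42 ± 0.08 for Pfkfb3 and 0.52 ± 0.07 for Pdk1 (adjusted p = 0.00194 and 1.46e-05, edgeR). Pdk1 was at 63.7, 63.6 and 66.4 CPM in IL-12 and 114, 111 and 248 CPM in IL-2. Car9, a carbonic anhydrase, was at most 1.87 CPM in any library, and it was no longer called when replicate 2 or 3 of IL-2, replicate 1 or 2 of IL-12, or any 1 IL-12 TCM library was left out.

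Fits that drop both replicate 3 libraries of the IL-2 groups called more members. Without TCM 22 then rose and 5 fell, where 52.3% of all genes tested were called, 26.3% higher and 26% lower, and the median of the 38 genes was 0.40. With TCM 29 rose and 3 fell, where 48% were called, 23.5% higher and 24.5% lower, and the median was 0.78. In IL-12 TCM against IL-2 TCM without that replicate, Bhlhe40 was 7.06-fold and Egln3 5.15-fold higher, and Pgam1, phosphoglycerate mutase, had a log2 fold change of 1.73 and Pkm, pyruvate kinase, of 1.16. Pdk1, Pfkm and Bnip3l, a mitophagy receptor related to Bnip3, fell in both comparisons. Members that were lower in IL-12 with all 12 libraries, though not called, and called higher without those 2 numbered 10 without TCM and 9 with TCM, with Vegfa, Gapdh, Eno1 and P4ha2 in both. The share of all genes tested that did so was not counted, so these numbers have no background beside them.

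**Figure D5:**
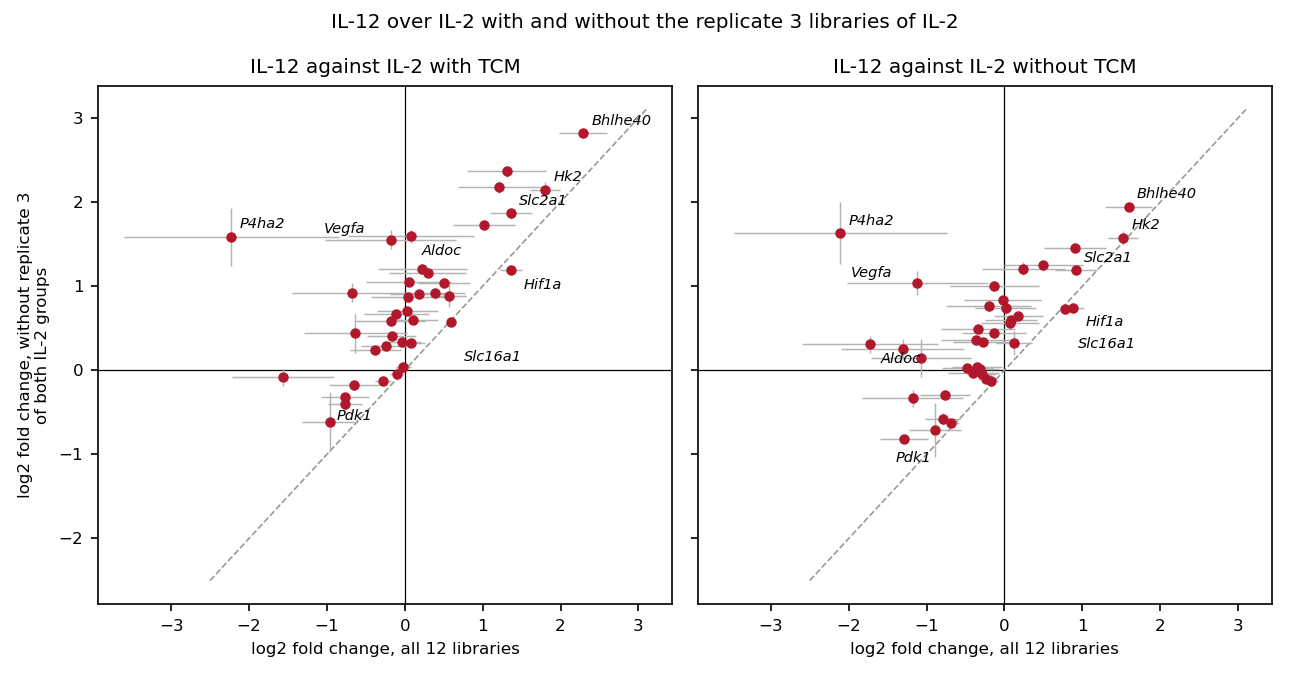
Log2 fold change of IL-12 over IL-2 ± SE for each of the 38 genes, with all 12 libraries (horizontal) and without replicate 3 of both IL-2 groups (vertical), with TCM and without TCM in separate panels. Most points lie above the diagonal, while Hif1a lies below it and Slc16a1 close to it, and genes above 0 on the vertical and below 0 on the horizontal axis have opposite signs in the 2 fits.

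Related genes outside the 38 were counted in the same way, and their counts stand beside the shares of all genes tested given above, 26.1% above, 23% below and 1.66% at least 2-fold above in replicate 3. Of 15 tested further isoforms of glycolysis, 7 were above and 5 below replicates 1 and 2 in replicate 3 of both IL-2 groups, of 8 pentose phosphate genes 4 and 3, and of 11 genes of pyruvate entry into mitochondria 3 and 6. Of 11 regulators of HIF 3 were above and 1 below, and of 21 further hypoxia targets 14 were above and 3 below. At least 2-fold above were 3 isoforms, 0 pentose phosphate genes, 0 pyruvate genes, 1 HIF regulator and 10 further targets. Pgm1 stands in the lists of isoforms and of further targets and is counted in both. Over all 12 libraries, 3 of the 15 isoforms rose and 1 fell with TCM in IL-12, as did 1 and 1 of the pentose phosphate genes, 2 and 3 of the pyruvate genes, 4 and 1 of the HIF regulators and 3 and 0 of the further targets, where 14.8% of all genes tested rose and 14.2% fell. In IL-2 TCM against IL-2, 1, 0, 1, 2 and 1 genes of these lists rose in the same order and 1, a further hypoxia target, fell, where 6.73% of all genes rose and 7.82% fell. Eno3, the muscle enolase, had a log2 fold change of 0.93 ± 0.07 with TCM in IL-2 and a difference of the TCM effect, IL-12 minus IL-2, of -0.57 ± 0.11 (adjusted p = 0.0185, edgeR).

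In IL-12 against IL-2, 22.1% of all genes tested rose and 23% fell without TCM, and 19.5% rose and 19.4% fell with TCM. Without TCM 1 isoform rose and 6 fell, 5 pentose phosphate genes rose and 1 fell, 2 pyruvate genes rose and 2 fell, 5 HIF regulators rose and 3 fell, and 4 further targets rose and 4 fell. With TCM these counts were 1 and 7, 4 and 0, 1 and 2, 4 and 2, and 6 and 2. Epas1, which encodes HIF-2 alpha, was at 3.12, 2.20 and 3.65 CPM in IL-12 TCM and 11.1, 11.8 and 23.5 CPM in IL-2 TCM, and at 3.49, 3.21 and 2.42 CPM in IL-12 and 13.7, 17.5 and 33.2 CPM in IL-2, with log2 fold changes of -2.37 and -2.79. It was thus lower in every IL-12 library than in every IL-2 library, where Hif1a was higher in each. Within the IL-2 groups Epas1 was highest in replicate 3, where Hif1a was lowest.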

How the data were processed

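Total RNA of 12 libraries was sequenced. The authors' deposited gene counts were made after alignment with STAR 2.7.7a, and edgeR is also named, per the submitters' processing notes. These notes name a human build although the identifiers are those of mouse, and no source used here gives a strand setting. The deposited signal values, which the authors made per gene and library, equal CPM on TMM-scaled library sizes up to 1 constant per library, and were used for limma alone.

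The counts were scaled by TMM, filtered with filterByExpr (minimum count 10, minimum total 15) and fitted with 1 mean per group in edgeR 4.0.16 under R 4.3.3 (quasi-likelihood F test). Benjamini-Hochberg adjustment covered all 15897 tested genes in each of 5 contrasts, with a threshold of 0.05. Rose, fell and called refer to that threshold, and background shares are those of all genes tested. Standard errors are the size of the log2 fold change over the square root of F. The name table gave symbols for 55141 of 55487 identifiers.

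Alternatives were other size factors, no filter, DESeq2 1.42.0, limma 3.58.1 on log2(CPM + 1) or with 0.1 added, only the groups compared, replicate blocks, each library left out, and both IL-2 groups without replicate 3. Deviations from the group means correlated between same-numbered IL-2 TCM and IL-2 libraries at 0.43, 0.40 and 0.68, over the threshold of 0.1 for pairing, and between IL-12 TCM and IL-12 libraries at 0.13, 0.01 and 0.02, so the block was used within the IL-2 groups. Crossed pairs of replicates 1 and 2 gave 0.41 and 0.45 in the IL-2 groups, so these 2 numbers are not told apart by the data. The labels do not say what a number marks.

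Every member is given by its value or within a count. Values in each library are given for the called members with the 6 smallest p per contrast and for the 8 with the largest mean replicate 3 ratio (with 0.1 CPM added), and further members named were chosen after their values were seen. The members and all lists were chosen with earlier results of these data known.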

Additional observations from a re-analysis of the deposited data

Results flagged for a closer look

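Hk1, Bhlhe40 and Slc16a1 were on opposite sides of 0 with TCM in the 2 cytokines in every same-numbered pair of libraries. The share of all genes tested that met this rule was not counted. Same-numbered IL-12 TCM and IL-12 libraries correlated at only 0.13, 0.01 and 0.02, so those pairs are pairs by number only. Hk1 had a TCM effect higher by 0.38 on the log2 scale in IL-12 than in IL-2, with an adjusted p of 0.559 over all 12 libraries (edgeR), of 0.000447 with the replicate block within both IL-2 groups and of 0.000221 without replicate 3 of both. Bhlhe40 had a difference of 0.69 with an adjusted p of 0.482, which with the block was 0.75 (adjusted p = 2.77e-06) and without replicate 3 was 0.87 (adjusted p = 1.13e-09). Slc16a1 had a difference of -0.18, lower with TCM in IL-12 and higher in IL-2, with an adjusted p of 0.337, of 0.111 with the block and of 0.176 without replicate 3, so it passed the threshold in none of these fits.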

How the results depend on the processing

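Each comparison was refitted under the planned settings, and of 3850 values 3158 kept their direction and side of the threshold, 412 passed it newly, 36 no longer passed it and 19 changed sign past it. Another 225 changed sign without passing it in either fit, 175 of them with 1 library left out. Shares in brackets are those of all genes tested. For TCM in IL-2, where 2 of 38 genes were called, no filter gave 22 (8.8%), only the 6 libraries compared 0, the replicate block over all libraries 5 (17.1%), the replicate block in IL-2 TCM and IL-2 alone 23, and leaving out replicate 3 of both groups 19. For TCM in IL-12 (5 called), no filter gave 29 (14.9%), DESeq2 3 (28.7%), only the libraries compared 32, the block over all libraries 11 (31.1%), the block in IL-2 TCM and IL-2 alone 31 and leaving out both replicate 3 libraries 32. For IL-12 against IL-2 without TCM (9 called) no filter gave 30 (22.7%) and leaving out both replicate 3 libraries 27. With TCM (6 called) no filter gave 25 (19.5%), limma 11 (39.4%) with 1 and 11 (39.4%) with 0.1 added. The block over all libraries gave 13 (41.2%) and leaving out both replicate 3 libraries 32. For the difference of the TCM effect (0 called) no filter gave 15 (2.41%), the block in IL-2 TCM and IL-2 alone 19 and leaving out both replicate 3 libraries 22. Unfiltered, edgeR took the same trended spread for all genes, in place of 5.12 prior degrees of freedom beside 8 residual ones. With 1 library left out the counts were 0 to 7 for TCM in IL-2 (0 without replicate 2 of IL-2, 7 without replicate 3 of IL-2), 3 to 15 for TCM in IL-12 and 8 to 14 for IL-12 against IL-2 without TCM (both highest without replicate 3 of IL-2 TCM), 6 to 15 with TCM (15 without replicate 3 of IL-2), and 0 to 7 for the difference (7 without replicate 3 of IL-2 TCM).

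Without both replicate 3 libraries the log2 fold change of IL-12 against IL-2 reversed, to higher in IL-12 and past the threshold, for the genes below. How many of all genes tested did so was not counted. Without TCM they were Aldoa (0.76), Aldoc (0.31), Tpi1 (0.997), Gapdh (0.44), Pgk1 (0.49), Eno1 (0.37), Pkm (0.83), Egln1 (0.33), Vegfa (1.04) and P4ha2 (1.63). With TCM they were Slc2a3 (0.24), Gpi1 (0.29), Pfkp (0.33), Gapdh (0.66), Eno1 (0.58), Vegfa (1.55), Bnip3 (0.92), P4ha2 (1.59) and Ddit4 (0.40). This last block was not run for IL-12 against IL-2. With 3 libraries per group, members at a few CPM such as Car9 and Ankrd37 are known least precisely.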

Other observations

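Among the 21 further hypoxia targets tested, 5 chosen after their values were seen had large ratios of replicate 3 to the mean of replicates 1 and 2. Selenbp1, a selenium-binding protein gene, was 14.9-fold higher in replicate 3 of IL-2 TCM and 9.20-fold higher in replicate 3 of IL-2. Gbe1, the glycogen branching enzyme, was 9.04-fold and 3.87-fold higher in the same libraries. Ak4, a mitochondrial adenylate kinase, was 6.03-fold and 4.40-fold higher, Fam162a, a hypoxia-responsive mitochondrial gene, 5.29-fold and 4.28-fold, and Ero1l, an oxidase of the endoplasmic reticulum, 4.10-fold and 2.36-fold. With both of these replicate 3 libraries left out, the comparison of IL-12 TCM with IL-12 called 15 of those 21 genes higher and 1 lower, where 23.1% of all genes tested were higher and 22.9% lower (edgeR). That of IL-2 TCM with IL-2 called 4 higher and 2 lower, where 12.3% of all genes tested were higher and 12.4% lower.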
